A study of Mus musculus with 3 samples.

Results

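Fibroblasts that carry Agtr2, Penk and Dlk1 messages were followed in single-cell RNA sequencing of the mouse hindstomach, the glandular part of the stomach, at embryonic day 18.5. A cell was counted as a member when it passed quality limits, had fibrillar collagen messages, had almost no epithelial messages and carried at least 3 of Agtr2, Penk, Dlk1, Cthrc1, Cdo1 and Capn6. It also had to carry more of these 6 genes than of 6 genes of mucosal fibroblasts (Spon2, Shisa3, Tcf21, Bmp4, Aspn and Tnxb), and fewer than 2 of Notum, Tac2, Apcdd1 and Tmem132c. By this rule 2707 of the 22870 deposited cells were members: 595 of 9439 in the YAP5SA library, 170 of 5739 in the YapKO library and 1942 of 7692 in the Control library. The members were thus chosen by their own expression, and the values of the genes in the rule are given as a description.

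The 3 libraries came from embryos of the genotypes Shh-Cre;YAP5SA (YAP5SA), Shh-Cre;YaploxP/loxP (YapKO) and Shh-Cre alone (Control), so all of them carry the Cre driver. The Shh-Cre driver recombines DNA in epithelium, and the YAP5SA allele makes a YAP coactivator that the Hippo kinases cannot switch off. The stromal cells described here are therefore not the cells the driver is known to target. Each genotype had 1 library, and the sources used here do not state how many embryos it pooled. For this reason no comparison between genotypes was tested, and every interval below covers counting error only.

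Fibroblasts of the developing stomach lie in layers between the epithelium and the outer muscle and supply the matrix and the secreted signals of each layer. Agtr2 encodes the type 2 angiotensin receptor, which is abundant in fetal mesenchyme, and Penk encodes proenkephalin, the precursor of the enkephalin opioid peptides. Dlk1 encodes an imprinted membrane protein related to Notch ligands, Cthrc1 a secreted collagen-triple-helix protein, Cdo1 the enzyme that oxidises cysteine on the way to taurine, and Capn6 a calpain that lacks protease activity.

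Libraries of 65843658, 40857358 and 48910624 UMIs (unique molecular identifiers, each counting 1 captured message) were deposited for YAP5SA, YapKO and Control. Members had a median of 5948, 6809.5 and 6649.5 UMIs per cell and 2575, 2804 and 2690.5 detected genes, with mitochondrial shares of 0.757%, 0.647% and 0.934%. Between libraries, 1528 cell names were shared by YAP5SA and YapKO, 2409 by YAP5SA and Control and 1388 by YapKO and Control, and 0 of these pairs had the same profile. Xist, which is transcribed in female cells, stood at 0.506, 340 and 111 CPM (UMIs of the summed cells, scaled to a common total) in members of YAP5SA, YapKO and Control. The Y-linked Ddx3y stood at 84.5, 69.7 and 73.6 CPM, so the libraries differed in the mix of sexes as well as in genotype.

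The collagen limit did not separate stroma equally well in the 3 libraries. Cells with macrophage C1q messages (C1qa, C1qb and C1qc together at 5 or more UMIs) should make no fibrillar collagen, yet Col1a1, Col1a2 and Col3a1 made up a median of 0.315% of their UMIs in YAP5SA, 0.0836% in YapKO and 0.656% in Control. The limit of the rule lay at 0.5%, and 20.5%, 0.917% and 89.4% of the C1q cells passed it. Members of Control accordingly included 1047 cells under 3 times the level of the C1q cells, against 98 in YAP5SA. In YapKO 3 times that level lay under the 0.5% of the rule, so the count of 0 there was fixed in advance. A stricter set was therefore described beside the members. These collagen-high members held at least 3 times the collagen share of the C1q cells of their own library (0.946% in YAP5SA, 1.97% in Control; 0.5% was kept in YapKO), fewer than 3 UMIs of 10 genes of other lineages, and at most 1% of UMIs from 7 contractile genes. They numbered 318 in YAP5SA, 104 in YapKO and 760 in Control, which is 53.4%, 61.2% and 39.1% of the members. The set was chosen after the data had been seen, and its collagen limit differs between libraries, which bears directly on any ratio of matrix genes.

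**Figure D1:**
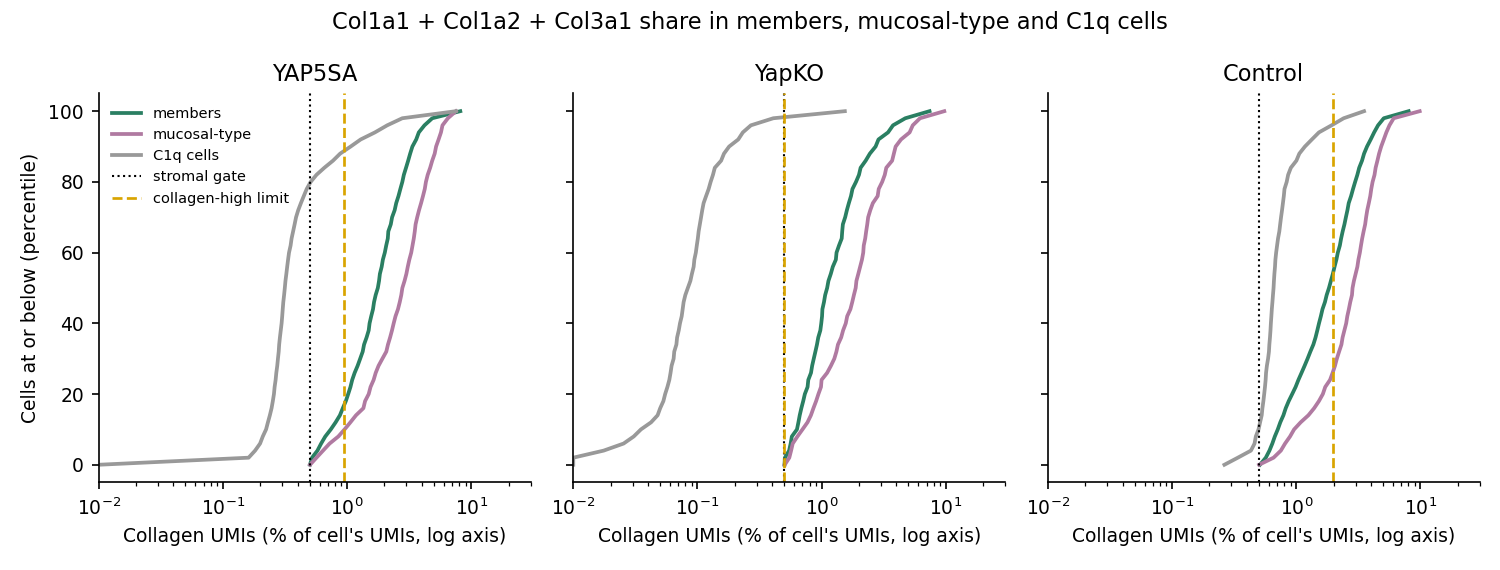
Share of each cell's UMIs from Col1a1, Col1a2 and Col3a1 (x, percent, log axis, values under 0.01% drawn at 0.01%) against the percentile of cells at or below it (y), for members, mucosal-type fibroblasts and C1q cells of each library. The dotted line is the stromal limit of 0.5% and the dashed line the collagen-high limit. C1q cells lie mostly left of the stromal limit in YAP5SA and YapKO and mostly right of it in Control.

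Genes common to fibroblasts were higher in members than outside the stroma, as were most pericyte genes and, in YAP5SA and Control, smooth muscle genes. All 14 genes of a pan-fibroblast list were higher in members than in cells outside the stromal limits, in each of the 3 libraries. Members were chosen by collagen and epithelial limits that the outside cells failed, so this was largely built in. The list summed to 7957 CPM in YAP5SA members, 6024 CPM in YapKO members and 7560 CPM in Control members, against 1957, 1308 and 2709 CPM outside the limits. Dcn, the collagen-binding proteoglycan decorin, stood at 975, 637 and 857 CPM in members, against 104, 39.9 and 208 CPM outside. Pdgfra, the receptor that defines many stromal fibroblasts, stood at 63.3, 86.2 and 50.9 CPM in members, against 9.46, 3.96 and 18.9 CPM outside. By the same comparison 9 of 9 smooth muscle genes were higher in members in YAP5SA and Control and 0 of 9 in YapKO, and in collagen-high members 1, 0 and 2 of 9 in YAP5SA, YapKO and Control. Of 7 pericyte genes, 5 in YAP5SA, 5 in YapKO and 6 in Control were higher in members than outside. The comparison with cells outside the limits therefore does not separate fibroblasts from these cell types. Against mucosal-type fibroblasts, chosen by the mirror image of the rule, 8 of 13, 10 of 12 and 8 of 11 measured pan-fibroblast genes were lower in members. In collagen-high cells 8 of 13, 7 of 12 and 6 of 13 were. Of all genes 48.2%, 53.3% and 43.4% were lower in members, and 48.2%, 54.3% and 53.7% in collagen-high cells.

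Messages of other cell types were present as well, and most were lower in the collagen-high set. Smooth muscle genes summed to 10102 CPM in YAP5SA members, 8938 CPM in YapKO members and 16213 CPM in Control members, and to 2519, 2678 and 3424 CPM in collagen-high members. Endothelial genes summed to 135, 109 and 373 CPM in members and to 48.1, 45.5 and 74.0 CPM in collagen-high members. Macrophage genes summed to 763, 177 and 621 CPM in members and to 357, 157 and 149 CPM in collagen-high members. The muscle and endothelial sums thus stood highest in Control, and the macrophage sum in YAP5SA. Neuron genes summed to 133, 344 and 637 CPM in members and to 118, 276 and 170 CPM in collagen-high members. Erythroid genes, mostly globins, summed to 8715, 4557 and 23325 CPM in members and to 5483, 7846 and 5781 CPM in collagen-high members. Neutrophil genes summed to 598, 44.6 and 46.1 CPM in members and to 217, 42.4 and 41.7 CPM in collagen-high members, so that YAP5SA stood apart for this list in both sets. In members, the other lists lay between 50.1 and 158 CPM for glia, 134 and 421 CPM for mesothelium, 540 and 1081 CPM for epithelium, 386 and 411 CPM for pericytes, 340 and 524 CPM for interstitial cells of Cajal and 40.2 and 60.5 CPM for skeletal muscle and cartilage. Myod1 and Myog, which define skeletal muscle, were at 0 in collagen-high members of all 3 libraries.

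The rule's own markers were carried very unevenly. Agtr2 was detected in 34.8% of YAP5SA members (95% interval 31.0 to 38.8), 44.1% of YapKO members (36.5 to 51.9) and 43.4% of Control members (41.2 to 45.6). Penk was detected in 82.2%, 70.6% and 79.8% of members, at 419, 223 and 319 CPM. Dlk1 was detected in 99.8%, 99.4% and 99.8% of members, at 4620, 3385 and 4099 CPM. Dlk1 alone separated little, since it was also detected in 99.8%, 94.5% and 99.2% of mucosal-type fibroblasts, which are the cells chosen by the mirror image of the rule. In epithelial cells, which are not expected to make it, Dlk1 was detected in 81.4%, 54.5% and 88.4% at median depths of 9119, 7937.5 and 6608.5 UMIs. Few members carried all 6 markers, at 4.37% in YAP5SA, 4.12% in YapKO and 7.52% in Control. Exactly 3 were carried by 53.4% of YAP5SA members, 47.6% of YapKO members and 39.8% of Control members.

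Cthrc1 was the marker with the largest spread between libraries. It was detected in 51.3% of YAP5SA members and 28.8% of YapKO members, against 54.5% of Control members, and its level was 187, 69.7 and 150 CPM. The YapKO level was 0.466 times that of Control (0.376 to 0.571) and in collagen-high members 0.374 times (0.285 to 0.482). Penk was 0.702 times the Control level in YapKO members (0.624 to 0.787) and 1.32 times in YAP5SA members (1.24 to 1.39). Agtr2 itself was 0.959 times the Control level in YAP5SA members (0.849 to 1.08) and 1.13 times in YapKO members (0.945 to 1.35), so both intervals include 1. In collagen-high members Agtr2 was 0.686 times the Control level in YAP5SA (0.575 to 0.814) and 0.970 times in YapKO (0.773 to 1.205). Because every member was chosen for these genes, their levels carry no weight as a comparison between genotypes.

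**Figure D2:**
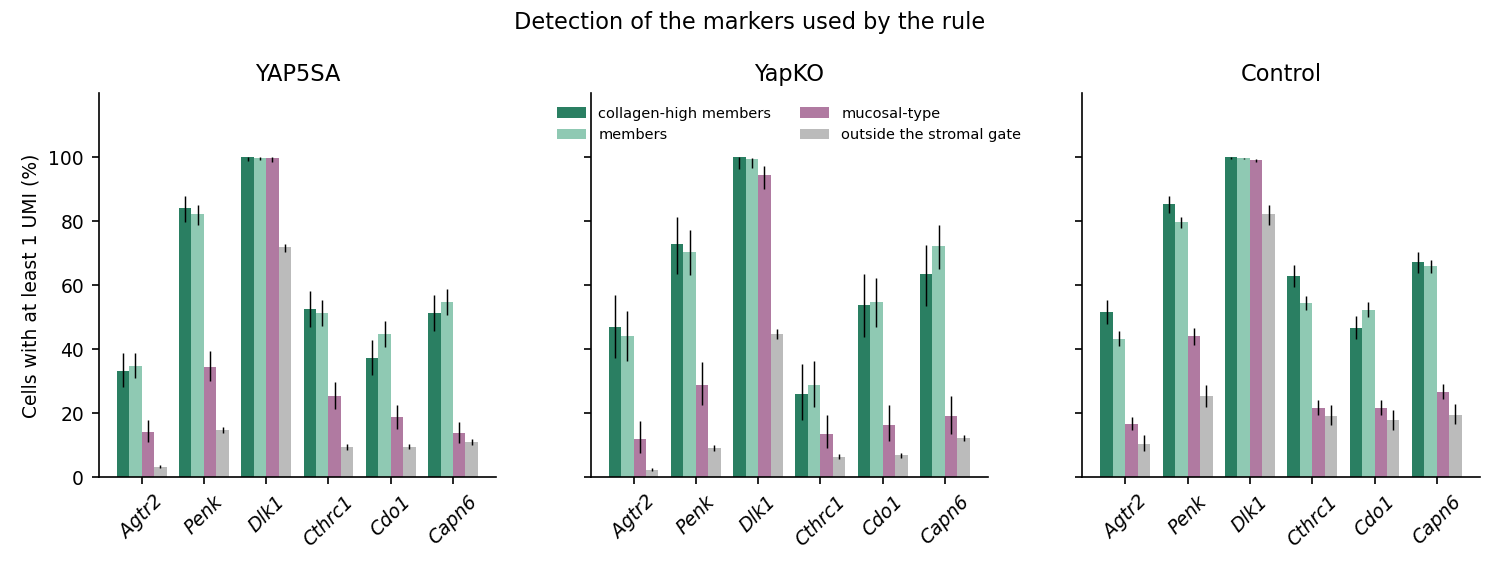
Percent of cells with at least 1 UMI of each marker gene of the rule (y), in collagen-high members, members, mucosal-type fibroblasts and cells outside the stromal limits of each library. Bars are shares and lines exact 95% binomial intervals. Dlk1 reaches nearly all members and nearly all mucosal-type fibroblasts, whereas Agtr2 reaches 34.8% of YAP5SA, 44.1% of YapKO and 43.4% of Control members.

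Each marker was then read in cells chosen by the remaining 5, with all other limits kept. Capn6 was detected in 38.0% of such cells in YAP5SA (33.4 to 42.7), 55.7% in YapKO (45.7 to 65.3) and 52.0% in Control (49.4 to 54.7), against 23.8%, 27.8% and 37.4% of the matching mucosal-type fibroblasts. Penk was detected in 64.9%, 51.0% and 66.8%, against 44.9%, 34.7% and 54.9%. The intervals of the chosen cells lay above those of the mucosal-type fibroblasts in all 3 libraries for Capn6. For Penk they did so in YAP5SA and Control, while those of YapKO overlapped at 40.9 to 61.0 against 28.1 to 41.7. Agtr2 was detected in 22.1%, 32.6% and 32.2%, against 19.6%, 17.4% and 24.4%, with the smallest difference in YAP5SA, where the intervals of 18.5 to 26.0 and 15.99 to 23.5 overlapped. Cthrc1 gave 33.5% against 33.1% and Cdo1 28.2% against 26.6% in YAP5SA, while in Control they gave 41.2% against 30.3% and 38.3% against 31.4%. Of the 18 pairs of marker and library, 9 had intervals that lay apart. In collagen-high cells 7 of the 18 did, and with cells thinned to 3000 UMIs 11 did.

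Collagen-high members with Agtr2 were set beside those in which it was not detected. Penk stood at 534 CPM in cells with Agtr2 and 560 CPM in cells without it in YAP5SA, at 316 and 331 CPM in YapKO, and at 526 and 483 CPM in Control. Ptn stood at 1147 and 1125 CPM in YAP5SA, at 744 and 794 CPM in YapKO, and at 1081 and 855 CPM in Control. Neither Penk nor Ptn was higher on the same side in all 3 libraries. Smoc2 was higher in cells with Agtr2 in each library, at 197 and 146 CPM in YAP5SA, 190 and 177 CPM in YapKO, and 233 and 195 CPM in Control. Capn6, a marker of the rule, was lower in them in each library, at 138 and 188 CPM, 208 and 285 CPM, and 241 and 254 CPM. Cells without Agtr2 had to carry 3 of the other 5 markers to be members, so the levels of Penk and Capn6 are set in part by the rule. Cells with Agtr2 were the deeper ones, with medians of 5482 and 4344.5 UMIs in YAP5SA, 6444 and 5324 in YapKO, and 6049 and 4930 in Control.

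Members made up a smaller share of the stroma in both mutant libraries than in Control. They were 14.96% of stromal cells in YAP5SA (13.9 to 16.1) and 22.8% in YapKO (19.9 to 26.0), against 28.7% in Control (27.7 to 29.8). Within collagen-high stromal cells the shares were 17.8% in YAP5SA (16.1 to 19.7) and 21.1% in YapKO (17.6 to 24.97), against 34.1% in Control (32.1 to 36.1). With stromal cells thinned to 3000 UMIs, 13.3% in YAP5SA and 19.2% in YapKO met the marker part of the rule, against 23.2% in Control. At that depth 2.92%, 0% and 6.69% of C1q cells also met it, as did 2.69%, 0.750% and 6.85% of epithelial cells. At full depth, where members were called, 10.5%, 4.28% and 17.3% of C1q cells met it. So did 10.2%, 7.79% and 23.6% of epithelial cells, and these values give the background of the marker rule. The stromal limits themselves held 44.0% of passing cells in YAP5SA and 14.3% in YapKO, against 91.7% in Control, so shares of all cells move with the collagen limit. Collagen-high members were 318 of 9029 passing cells in YAP5SA and 104 of 5201 in YapKO, against 760 of 7372 in Control.

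Set against the other fibroblasts, the number of members depended on the library in another way. There were 141 members per 100 mucosal-type fibroblasts in YAP5SA and 92.9 in YapKO, against 146 in Control. In collagen-high cells the numbers were 134 and 78.8, against 91.7 in Control. In YAP5SA a further 1188 stromal cells carried at least 2 of the Notum gene set, against 4 in YapKO and 27 in Control. Without the limit on these genes the share of members in YAP5SA stroma was 20.8%.

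Members and mucosal-type fibroblasts differed in few genes, by the size used here. This is the contrast the rule drew, so the values are a description. Among 2940 genes with 50 CPM or more in either class of every library, 3 (0.102%) were at least 2-fold higher in members in all 3 libraries and 8 (0.272%) at least 2-fold lower. Within single libraries, 0.576% of genes were 2-fold higher and 0.547% lower in YAP5SA members, 2.2% and 2.3% in YapKO members and 0.51% and 0.48% in Control members. In collagen-high cells the counts over all 3 libraries were 21 (0.703%) and 14 (0.468%) of 2989 genes. The 3 genes were Smoc2, which encodes a secreted calcium-binding matrix protein, Ptn, which encodes the heparin-binding growth factor pleiotrophin, and Adgrb3, an adhesion receptor.

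Igfbp6, which binds IGF2 in preference to IGF1, had the highest ratio of the ranked genes in the collagen-high set. It stood at 166 CPM in collagen-high members and 14.6 CPM in collagen-high mucosal-type fibroblasts of YAP5SA, at 138 and 25.7 CPM in YapKO, and at 285 and 58.6 CPM in Control. Smoc2 stood at 166 and 36.6 CPM in YAP5SA, at 184 and 29.1 CPM in YapKO, and at 217 and 52.0 CPM in Control. Ptn stood at 1134 and 356 CPM in YAP5SA, at 768 and 209 CPM in YapKO, and at 984 and 238 CPM in Control. Within the collagen-high set all 3 genes were thus several-fold higher in members of every genotype. Over all members Igfbp6 stood at 164 CPM in members and 22.5 CPM in mucosal-type fibroblasts of YAP5SA, at 93.4 and 19.3 CPM in YapKO, and at 195 and 111 CPM in Control, where its ratio of 1.75 (1.64 to 1.88) was under 2-fold. For Ptn the collagen-high ratio was 3.18 in YAP5SA (2.86 to 3.54), 3.68 in YapKO (3.10 to 4.37) and 4.13 in Control (3.86 to 4.41).

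The other genes of the 15 highest in the collagen-high set had varied roles. Ramp1, a partner of the receptor for the neuropeptide CGRP, was 3.62-fold higher in YAP5SA (2.54 to 5.28), 7.20-fold in YapKO (3.33 to 17.8) and 3.25-fold in Control (2.63 to 4.05). Slit2, a ligand of Robo receptors, was 2.16-fold, 2.70-fold and 2.40-fold higher, and Nrp1, a coreceptor for semaphorins and VEGF, 2.07-fold, 3.48-fold and 3.13-fold. Cpe, the carboxypeptidase that trims prohormones including proenkephalin, was 2.22-fold, 2.35-fold and 3.04-fold higher. Nbl1, a BMP antagonist, was 2.74-fold, 3.68-fold and 2.68-fold higher, and Dkk2, a modulator of Wnt coreceptors, 2.57-fold, 2.23-fold and 2.58-fold. The synaptic adhesion gene Nlgn1 was 4.83-fold, 3.13-fold and 2.83-fold higher. Megf6, Spon1, Adam12, Fxyd6 and the imprinted Mest completed the 15 highest. Of the list of neural and vascular niche genes, 5 of 9, 5 of 10 and 4 of 8 measured genes were above 0 in collagen-high members of YAP5SA, YapKO and Control. Of all genes tested 51.8%, 45.7% and 46.3% were, so the list as a whole stood near that share.

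Genes lower in members included the homeobox transcription factor Pitx1. It stood at 44.3 CPM in collagen-high members and 260 CPM in collagen-high mucosal-type fibroblasts of YAP5SA, at 94.2 and 337 CPM in YapKO, and at 57.9 and 293 CPM in Control. Gpx3, the secreted glutathione peroxidase, stood at 198 and 702 CPM in YAP5SA, at 94.2 and 421 CPM in YapKO, and at 205 and 594 CPM in Control. Col15a1 and Col18a1, collagens of basement membrane zones, were 0.351 and 0.313 times the mucosal-type level in YAP5SA, 0.168 and 0.181 times in YapKO, and 0.390 and 0.417 times in Control. Cpa6, Adamtsl5, Sema3c, Ephb1, Ndufa4l2 and the pericyte gene Rgs5 were the others of the 10 lowest. The pericyte list as a whole was mixed, with 3 of 5, 2 of 6 and 2 of 4 measured genes higher in collagen-high members. Its gene Kcnj8 was higher in them in each library, at 150 and 78.1 CPM, 135 and 71.5 CPM, and 98.5 and 41.5 CPM.

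**Figure D3:**
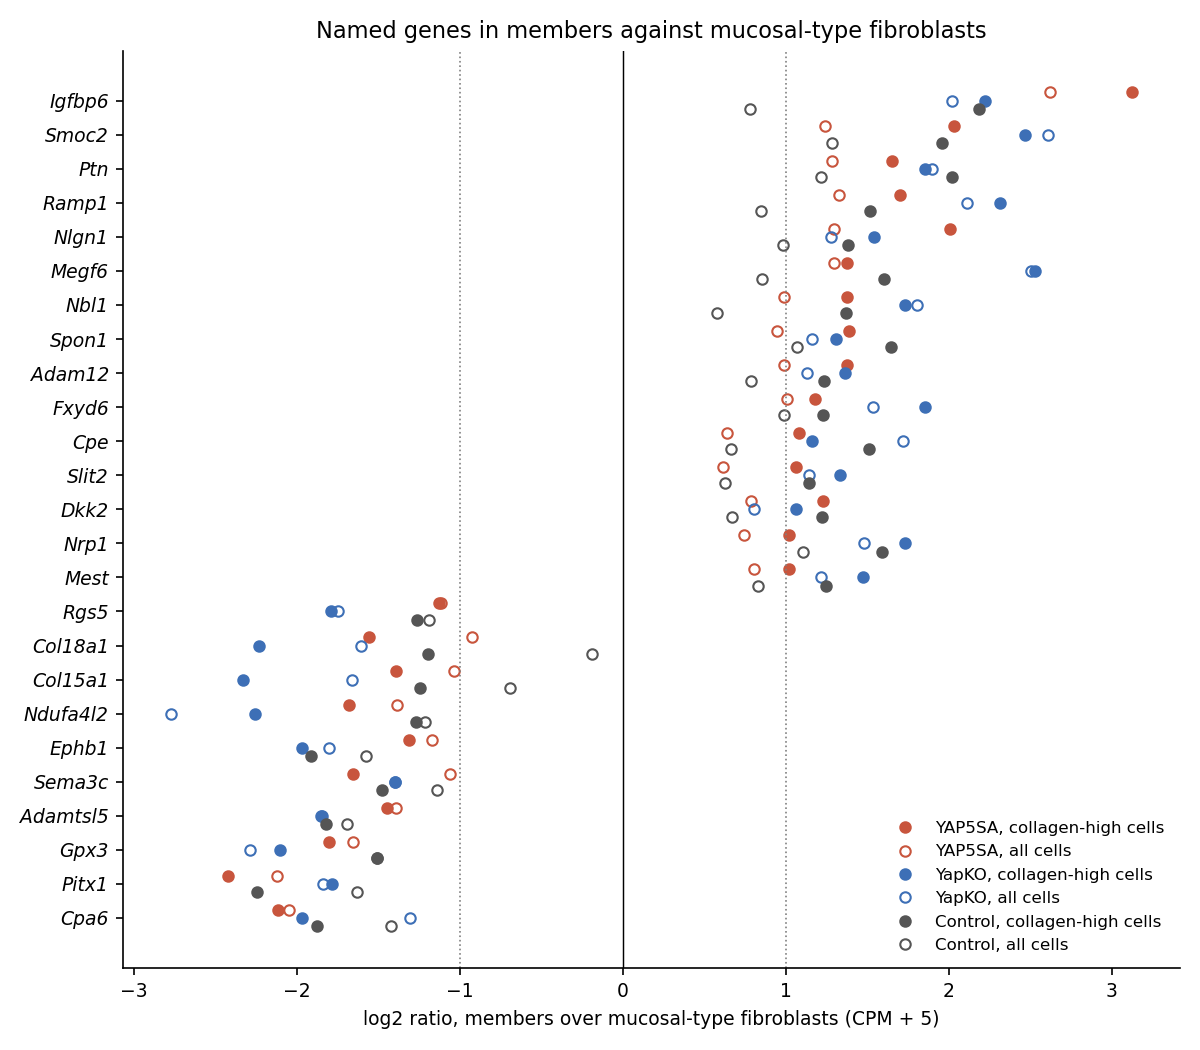
log2 ratio of summed CPM (with 5 CPM added) in members over mucosal-type fibroblasts for the 15 highest and 10 lowest genes of the collagen-high comparison, by library. Filled points are collagen-high cells, open points all cells, and dotted lines mark a 2-fold difference. Filled points of all 3 libraries lie beyond the same dotted line for each gene, since the genes were chosen for that.

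Genes chosen in Control alone were then read in the mutant libraries. The same rule drew the contrast in each library, so a shared direction was in part built in. The values are a description. The 30 genes with the highest ratio of collagen-high members over mucosal-type fibroblasts in Control were all higher in members in YAP5SA, 18 of them at least 2-fold, and 29 were higher in YapKO, 25 at least 2-fold. Of all genes tested, 1.16% were at least 2-fold higher in members in YAP5SA and 3.23% in YapKO. The 30 lowest in Control were all lower in YAP5SA, 20 at least 2-fold, and 29 were lower in YapKO, 20 at least 2-fold, where 1.02% and 3.71% of all genes were. In Control itself, 1.62% of genes were at least 2-fold higher in collagen-high members and 0.838% lower. Khk, among the higher genes, and Ifi27l2a, among the lower, were the exceptions in YapKO. The median log2 ratio of the 30 higher genes was 1.12 in YAP5SA and 1.52 in YapKO, against 1.44 in Control where they were chosen. Chosen and read over all members instead, 10 of the 30 higher genes were at least 2-fold higher in YAP5SA and 23 in YapKO, and 14 and 16 of the 30 lower genes at least 2-fold lower. All 30 of each kept their direction in YAP5SA and 29 of each in YapKO, with Pcp4 and Ccl21a the exceptions.

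Ptn, Pitx1 and Igfbp6 were read against the number of markers detected. The order uses the markers of the rule, and these genes were named from the contrast the rule drew. A trend was thus built in, and the values are a description. Collagen-high stromal cells were ordered by the number of rule markers minus the number of mucosal markers detected. In Control, Ptn stood at 142 CPM at a difference of -4, 490 CPM at 0 and 1323 CPM at 4, and Pitx1 at 338, 158 and 14.4 CPM. In YAP5SA, Ptn stood at 276, 984 and 1209 CPM and Pitx1 at 298, 64.0 and 29.2 CPM at the same points. In YapKO, where at least 20 cells were available between -3 and 3, Ptn stood at 193, 465 and 870 CPM and Pitx1 at 422, 260 and 68.2 CPM. Igfbp6 stood at 7.26 CPM at -4, 155 CPM at 0 and 327 CPM at 4 in YAP5SA, and at 15.98, 157 and 324 CPM in Control. At 1, 2 and 3 Igfbp6 stood at 103, 175 and 117 CPM in YAP5SA and at 259, 312 and 261 CPM in Control, so neither rose at every step. In YapKO it stood at 13.5 CPM at -3, 169 CPM at 0, 283 CPM at 1, 83.3 CPM at 2 and 68.2 CPM at 3. There it was lower at 3 than at 0.

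Cells at the threshold of the rule were compared among all stromal cells, not only the collagen-high ones. Cells with 3 rule markers and 2 mucosal markers lie just inside, and cells with 3 of each just outside. In YAP5SA, Ptn stood at 1019 CPM inside and 1141 CPM outside, and Pitx1 at 48.3 and 66.0 CPM. In YapKO, where 24 and 14 cells were counted, Ptn stood at 889 and 628 CPM and Pitx1 at 61.3 and 129 CPM. In Control, Ptn stood at 518 and 491 CPM and Pitx1 at 99.3 and 126 CPM. At this edge Pitx1 was thus lower inside in each library, whereas Ptn was lower inside in YAP5SA. Igfbp6 (141 and 149 CPM) and Smoc2 (126 and 161 CPM) were also lower inside in YAP5SA. Both were higher inside in YapKO and Control. Another edge lies between 3 and 2 rule markers, with 1 or fewer mucosal markers. There Pitx1 stood at 40.4 CPM inside and 74.6 CPM outside in YAP5SA, 150 and 215 CPM in YapKO, and 88.8 and 86.2 CPM in Control. Ptn was higher inside in each library, at 1103 and 920 CPM, 914 and 758 CPM, and 580 and 410 CPM. Smoc2 was higher inside as well, at 115 and 79.9 CPM, 178 and 146 CPM, and 80.1 and 60.4 CPM. Igfbp6 was lower inside in each library, at 83.6 and 92.8 CPM, 48.2 and 94.4 CPM, and 102 and 139 CPM.

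**Figure D4:**
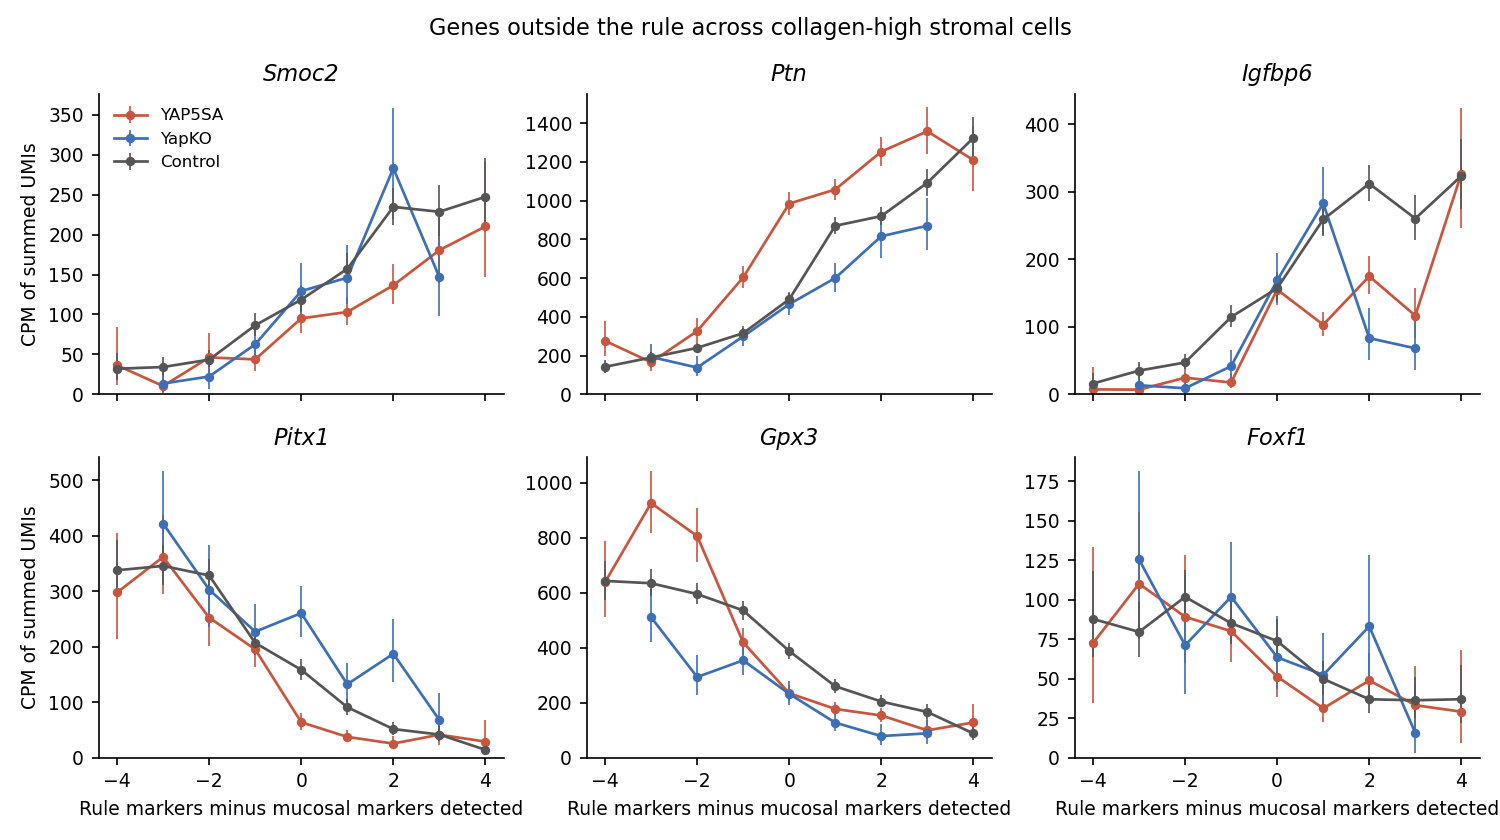
Summed CPM (y) of genes outside the rule in collagen-high stromal cells grouped by the number of rule markers minus mucosal markers detected (x), for each library, with exact 95% Poisson intervals. Groups of fewer than 20 cells are not drawn. The order uses the markers of the rule, so the values are a description. In Control, Smoc2, Ptn and Igfbp6 are higher and Pitx1, Gpx3 and Foxf1 lower at the right end than at the left. In YapKO, Igfbp6 is highest at a difference of 1.

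Among the gene lists, imprinted growth genes mostly stood higher in members than in mucosal-type fibroblasts. In collagen-high cells, 14 of 19 measured genes of the imprinted network were higher in YAP5SA, 15 of 19 in YapKO and 16 of 18 in Control, with median log2 ratios of 0.22, 0.30 and 0.29. Of all genes tested, 51.8% in YAP5SA, 45.7% in YapKO and 46.3% in Control were above 0, with medians of 0.01, -0.05 and -0.02. Over all members the network had 13 of 18, 14 of 19 and 13 of 18 genes above 0, with medians of 0.18, 0.18 and 0.16, beside 51.8%, 46.7% and 56.6% of all genes. In collagen-high cells the fetal growth factor Igf2 stood at 2042 CPM in members and 1404 CPM in mucosal-type fibroblasts of YAP5SA. It stood at 1873 and 905 CPM in YapKO, and at 1676 and 948 CPM in Control. Mest stood at 1137 and 559 CPM, 942 and 335 CPM, and 1360 and 571 CPM in the same collagen-high cells. Of the Wnt list, 7 of 8 genes, 6 of 8 and 4 of 6 were higher in collagen-high members of YAP5SA, YapKO and Control, with medians of 0.58, 0.44 and 0.57. Over all members 8 of 8, 7 of 9 and 2 of 4 were higher, with medians of 0.39, 0.36 and 0.09, so that the Wnt list did not stand higher on balance in all Control members. Of the elastic fibre list, 12 of 16, 12 of 16 and 11 of 16 genes were lower in collagen-high members, where 48.2%, 54.3% and 53.7% of all genes were. Over all members 12, 12 and 13 of the 16 were lower, beside 48.2%, 53.3% and 43.4% of all genes. Most genes of the angiotensin and opioid lists other than the markers were under 50 CPM: 0 of 12 and 2 of 11 genes could be compared in YAP5SA and Control.

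In YAP5SA, members could also be set against the Notum cells of the same library. In the collagen-high cells Clec3b stood at 289 CPM in members and 32.5 CPM in Notum cells, a ratio of 8.88 (7.05 to 11.3). The adhesion receptor Adgrb3 (67.0 and 7.10 CPM), the matrix protein Dpt (388 and 62.4 CPM) and the retinol-metabolising Adh1 (84.1 and 10.8 CPM) were also higher in members. The surface glycoprotein Thy1 stood at 31.6 CPM in members and 203 CPM in Notum cells, and Nrxn3, Inhba and the water channel Aqp1 were lower as well, at 27.8 and 210 CPM, 7.59 and 59.1 CPM, and 23.4 and 131 CPM. Ptn, which separated members from mucosal-type fibroblasts, stood at 1134 CPM in members and 1145 CPM in Notum cells.

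Between YAP5SA and Control, few genes of the members differed 2-fold. Of 3509 genes with 50 CPM or more in either library, 38 (1.08%) were at least 2-fold higher in YAP5SA members and 47 (1.34%) at least 2-fold lower, and the median log2 ratio of all genes was 0.04. In collagen-high members 49 (1.41%) were higher and 26 (0.749%) lower, of 3471 genes. With the same collagen limit of 2% in both libraries, which kept 164 YAP5SA and 741 Control members, 48 (1.38%) were higher and 21 (0.602%) lower.

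Many genes past 2-fold were more abundant in other cells: 54 of those eligible for ranking stood higher outside the stroma than in members of the library where members had more, and 19 did not. Among the 54 were neutrophil genes and the keratins of epithelium, and Lcn2, a secreted lipocalin of neutrophils and epithelium, at 79.0 CPM in YAP5SA members and 4.23 CPM in Control members. The ranked genes below leave such messages out. Igfbp3, a carrier of insulin-like growth factors, had the highest ratio of the ranked genes. It stood at 367 CPM in YAP5SA members and 132 CPM in Control members, a ratio of 2.78 (2.60 to 2.97), and at 434 and 124 CPM in collagen-high members, a ratio of 3.49 (3.12 to 3.91). Mucosal-type fibroblasts moved with it, with a collagen-high log2 ratio of 2.31 against 1.76 in members, and cells outside the stromal limits held 131 CPM in YAP5SA and 52.1 CPM in Control. Pmepa1, an inhibitor of TGF-beta signalling, stood at 353 CPM in YAP5SA members and 138 CPM in Control members, and outside at 254 and 141 CPM. Pdpn, the membrane glycoprotein podoplanin, stood at 91.4 and 33.2 CPM in members and at 70.9 and 16.7 CPM outside. Ifitm1, an interferon-inducible membrane protein, stood at 494 and 189 CPM in members but at 180 and 293 CPM outside, so that it was higher in YAP5SA in members and lower in YAP5SA outside the stroma.

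Other genes of the 12 highest had smaller ratios over all members. Col9a2, a fibril-associated collagen, stood at 111 CPM in YAP5SA members and 59.3 CPM in Control members, and in collagen-high members at 145 and 42.2 CPM. Slit2 stood at 122 and 64.8 CPM in members and Ccn4, a Wnt-induced matricellular gene, at 82.8 and 42.7 CPM. These 3 genes were under 2-fold over all members. Timp1, the metalloprotease inhibitor, was 2.45-fold higher in YAP5SA members (2.14 to 2.81) but 1.43-fold in collagen-high members (1.16 to 1.75). Plxdc2, Tspan4, Lrrk1 and Icam1 were the others of the 12 highest, with collagen-high log2 ratios of 0.98, 0.64, 0.83 and 0.92.

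Inflammatory genes mostly stood higher in YAP5SA members. All 7 genes that could be compared had a log2 ratio above 0, beside 58.0% of all genes, and 2 of them were at least 2-fold higher, with a median log2 ratio of 0.83. In collagen-high members 5 of 6 did, beside 58.8% of all genes, 3 at least 2-fold, with a median of 1.00. Ccl2, which attracts monocytes, stood at 142 CPM in YAP5SA and 32.5 CPM in Control collagen-high members, a ratio of 4.36 (3.53 to 5.41), with 85.1 and 36.0 CPM outside the stroma. Cxcl2, a neutrophil chemokine, had a collagen-high log2 ratio of 2.10, and Tnfaip6 of -0.62. The neutrophil and macrophage sums given above, 217 against 41.7 CPM and 357 against 149 CPM in these cells, moved with the list, and their part in it was not tested. All 6 neutrophil genes and all 8 macrophage genes stood higher in collagen-high members of YAP5SA than in those of Control, and none was at 0.

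The ranked genes with the lowest ratios in YAP5SA members included several known from endothelial cells. Fabp4, a lipid chaperone of capillaries and fat, stood at 27.8 CPM in YAP5SA members and 171 CPM in Control members, and at 35.4 and 80.0 CPM in collagen-high members. The lymphatic chemokine gene Ccl21a, the endothelial Egfl7 and the surface gene Tm4sf1 were lower in all members but had collagen-high log2 ratios of 0.21, 0.13 and 0.16. Crip2, Plxnd1, Col18a1, Cav1, Npnt and Tubb2b had collagen-high log2 ratios between -0.67 and -0.13, and Pcp4 and Nckap5 of -0.88 and -0.92. The endothelial sum was 135 CPM in YAP5SA members and 373 CPM in Control members, and 48.1 and 74.0 CPM in the collagen-high set. All 8 endothelial markers stood lower in YAP5SA members, and 6 of the 8 in the collagen-high set, and none was at 0 there. Among the 12 genes, Fabp4 alone was at least 2-fold lower in the collagen-high set on this log2 scale. The part of endothelial messages in these ratios was not tested.

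In collagen-high members the lowest ratio of the ranked genes in YAP5SA belonged to Clec3b, which encodes the plasminogen-binding tetranectin. It stood at 289 CPM in YAP5SA and 835 CPM in Control, a ratio of 0.346 (0.313 to 0.381). Dpt stood at 388 and 802 CPM, Igfbp5 at 266 and 601 CPM, and Col5a3 at 42.4 and 111 CPM. The hyaluronan pathway genes Has1 and Ugdh stood at 38.6 and 95.4 CPM and at 125 and 290 CPM. Over all members the differences were smaller. Clec3b stood at 233 CPM in YAP5SA and 346 CPM in Control, a ratio of 0.675 (0.629 to 0.724). Col5a3 stood at 45.6 and 58.1 CPM, and Dpt at 309 and 409 CPM. Both genes were also lower in collagen-high mucosal-type fibroblasts of YAP5SA. There Clec3b stood at 432 CPM in YAP5SA and 579 CPM in Control, and Dpt at 622 and 1017 CPM. The collagen-high limit was 0.946% in YAP5SA and 1.97% in Control. With a limit of 2% in both libraries, the log2 ratio of Clec3b was -1.10 and that of Dpt -0.92. Of the adventitial list, which holds Clec3b and Dpt, 5 of 6 genes were lower in members (median log2 ratio -0.21) and in collagen-high members (-0.68), with Anxa3 at 1.01 and 0.99 the exception. Of all genes, 58.0% in members and 58.8% in collagen-high members were above 0.

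**Figure D5:**
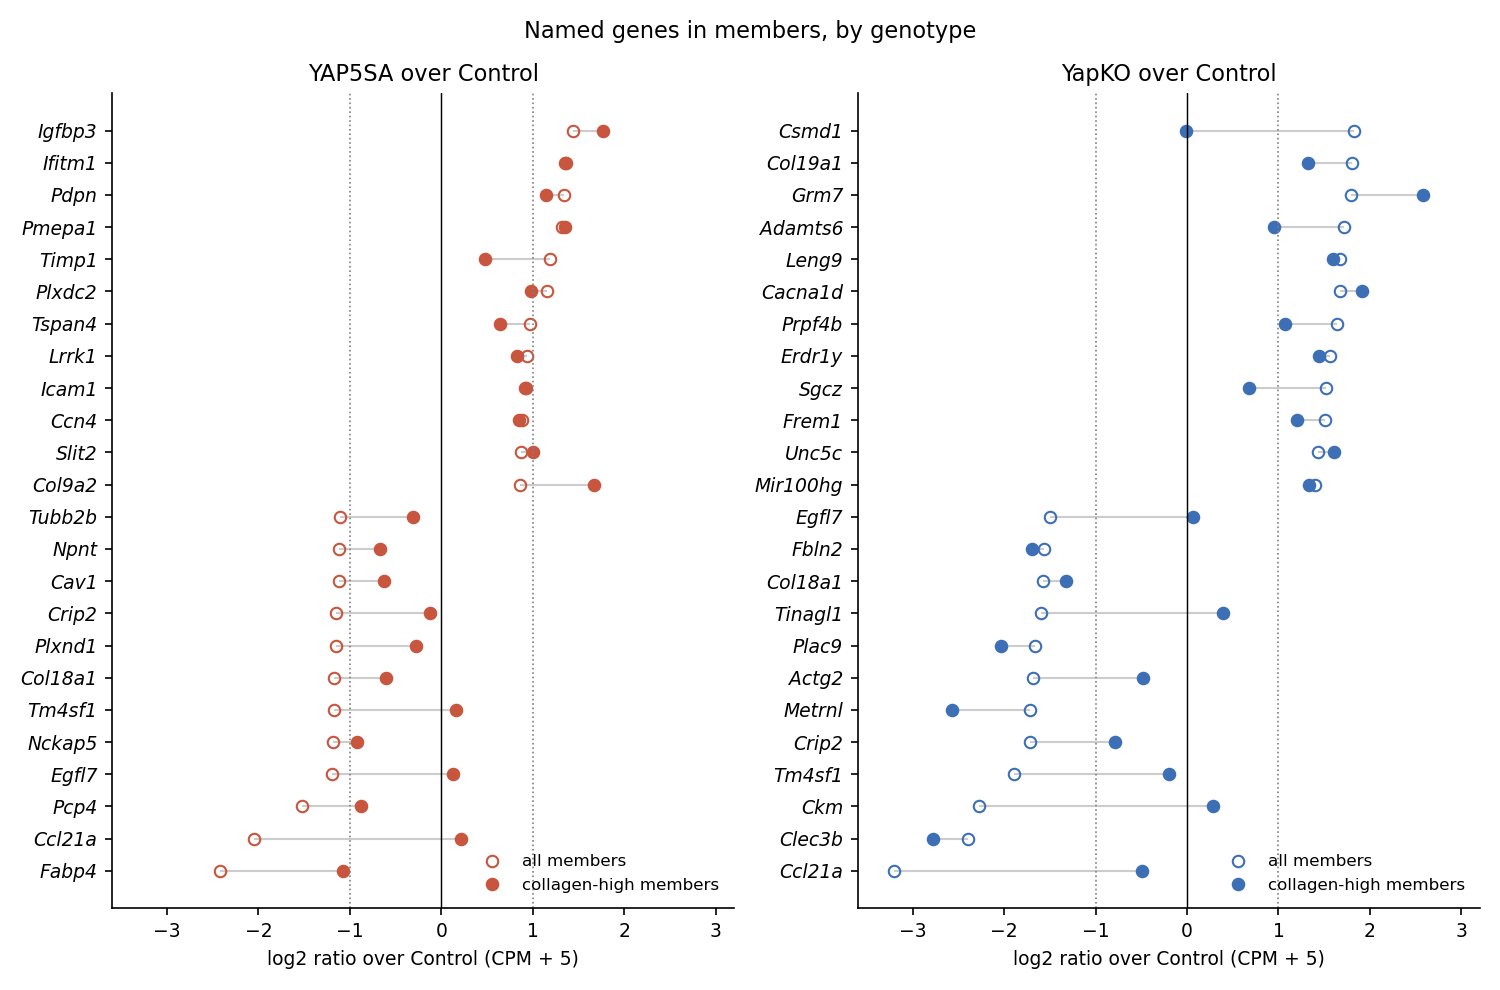
log2 ratio over Control of summed CPM (with 5 CPM added) in members of YAP5SA and of YapKO, for the 12 highest and 12 lowest ranked genes of each. Open points are all members and filled points collagen-high members, joined by a line, and dotted lines mark a 2-fold difference. Igfbp3, Ifitm1, Pdpn and Pmepa1 stay beyond the right dotted line in YAP5SA, and Clec3b, Metrnl, Plac9 and Fbln2 beyond the left in YapKO, whereas Egfl7 crosses 0 in both.

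Between YapKO and Control, more genes passed 2-fold, with fewer cells behind each value. Of 3886 genes, 102 (2.62%) were at least 2-fold higher in YapKO members and 75 (1.93%) at least 2-fold lower, beside a median log2 ratio of 0.09. Of those eligible for ranking, 33 stood higher outside the stroma and 124 did not. In collagen-high members, 220 (5.62%) were higher and 97 (2.48%) lower, of 3914 genes, and the YapKO sum rested on 104 cells and 636786 UMIs. With 2% collagen in both libraries, which left 24 YapKO members, 297 (7.78%) were higher and 246 (6.44%) lower.

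Clec3b was again the lowest of the ranked genes in collagen-high members. It stood at 61.8 CPM in YapKO members and 346 CPM in Control members, and at 118 and 835 CPM in collagen-high members, a ratio of 0.141 (0.111 to 0.177). Mucosal-type fibroblasts moved with it, at 56.5 CPM in YapKO and 363 CPM in Control, and at 77.1 and 579 CPM in collagen-high ones. Outside the stroma Clec3b stood at 1.15 and 43.5 CPM. Plac9, a small secreted protein, stood at 436 and 1394 CPM in members and at 669 and 2762 CPM in collagen-high members. Metrnl, a secreted meteorin-like factor, stood at 12.9 and 53.8 CPM in members and at 11.0 and 90.1 CPM in collagen-high members. Fbln2, an elastic fibre protein, stood at 54.6 and 171 CPM in members and at 50.3 and 174 CPM in collagen-high members. At 2% collagen the log2 ratios were -1.30 for Clec3b, -1.10 for Plac9, -1.28 for Metrnl and -0.70 for Fbln2.

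Other low genes of YapKO members depended on the cells counted. Ckm, Tinagl1 and Egfl7 were 0.177, 0.295 and 0.315 times the Control level in all members but had collagen-high log2 ratios of 0.28, 0.39 and 0.07. Ccl21a rested on 3 UMIs in YapKO members, at a ratio of 0.0354 (0.00729 to 0.104). Actg2, a contractile actin, stood at 1296 CPM in YapKO members and 4173 CPM in Control members, and at 476 and 665 CPM in collagen-high members. In the collagen-high set the genes of secreted proteins Mfap5, Postn and Cpz and the Hedgehog target Gli1 were among the 12 lowest, at 126 and 409 CPM, 137 and 416 CPM, 20.4 and 90.3 CPM, and 17.3 and 69.1 CPM.

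Genes higher in YapKO members included receptors and channels better known from neurons and muscle. Grm7, a metabotropic glutamate receptor, stood at 64.7 CPM in YapKO members and 15.1 CPM in Control members, and at 91.1 and 11.0 CPM in collagen-high members, with 14.0 and 11.0 CPM outside the stroma. Cacna1d, a calcium channel subunit, stood at 165 and 48.2 CPM in members, 201 and 49.9 CPM in collagen-high members and 25.7 and 21.5 CPM outside. Khdrbs2, an RNA-binding protein, had a collagen-high ratio of 15.9 (9.83 to 26.2), with a log2 ratio of -1.12 at 2% collagen. Csmd1, the ranked gene with the highest ratio over all members at 54.6 and 11.8 CPM, had a collagen-high log2 ratio of -0.01. Col19a1, Unc5c, Frem1, Leng9, Prpf4b, Erdr1y and Mir100hg had collagen-high log2 ratios between 1.07 and 1.60, and Adamts6 and Sgcz of 0.96 and 0.67. Neuron genes summed to 276 CPM in YapKO and 170 CPM in Control collagen-high members, but in all members the sums were 344 and 637 CPM. Markers of interstitial cells of Cajal, the pacemaker cells of the gut wall, also stood higher in the collagen-high set: 5 of 5 had a log2 ratio above 0, 4 were at least 2-fold higher, and the median was 1.39. Their sum was 457 CPM in YapKO and 229 CPM in Control collagen-high members, and 524 and 340 CPM in all members, where 3 of 3 measured genes were above 0, none 2-fold, and the median was 0.37. Of all genes, 57.4% were above 0 and 5.62% at least 2-fold higher in collagen-high members, and 56.6% and 2.62% in all members. Kit stood at 73.8 CPM in YapKO and 24.1 CPM in Control collagen-high members, and Ano1 at 81.7 and 27.4 CPM, and no marker of the list was at 0. The part of neuron and Cajal cell messages in these ratios was not tested.

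Most listed signals and regulators of the stomach mesenchyme had log2 ratios above 0 in YapKO members. Fgf10, a growth factor made by mesenchyme for the epithelium, stood at 43.8 CPM in YapKO members and 15.5 CPM in Control members, and at 67.5 and 15.5 CPM in collagen-high members, with 8.001 and 5.93 CPM outside. Of the list of mesenchymal transcription factors, 12 of 12 measured genes had a log2 ratio above 0 in members, with a median log2 ratio of 0.59, and 10 of 12 in collagen-high members, with a median of 0.66. Meis2, a homeobox factor, had a log2 ratio of 1.35 in members and 1.496 in collagen-high members. Of the BMP list, 7 of 7 genes were above 0 in members and 6 of 7 in collagen-high members, with medians of 0.56 and 0.59, among them Id1, a direct BMP target, at 0.56 and 1.23. The share of all genes above 0 was 56.6% in members and 57.4% in collagen-high members. The Cajal cell markers given above moved in the same direction, and their part in these lists was not tested.

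Genes of glycolysis and of adventitial fibroblasts mostly had log2 ratios below 0 in YapKO. Of the hypoxia and glycolysis list, 12 of 14 genes were below 0 in YapKO members (median -0.50) and 10 of 15 in collagen-high members (-0.21), whereas in YAP5SA 12 of 14 and 12 of 13 were above 0 (medians 0.12 and 0.18). Of the adventitial list, 5 of 6 were below 0 in YapKO members (-0.75) and collagen-high members (-0.98). Of all genes, 56.6% in YapKO members and 57.4% in collagen-high members were above 0, and 58.0% and 58.8% in YAP5SA. The list of YAP and TEAD targets had medians of 0.09 in YAP5SA and 0.16 in YapKO members, and of 0.18 and 0.35 in collagen-high members. The medians of all genes were 0.04 and 0.09 in members, and 0.05 and 0.11 in collagen-high members. Yap1 itself stood at 67.8 CPM in YAP5SA and 78.3 CPM in YapKO members, against 57.9 CPM in Control members, in cells that Shh-Cre is not known to target, and a 3′ tag may lie outside the deleted part of the gene. Its collagen-high ratios were 1.29 in YAP5SA (1.03 to 1.60) and 1.06 in YapKO (0.741 to 1.47). The proliferation gene Mki67 stood at 49.6 and 59.6 CPM in YAP5SA and YapKO members, against 61.0 CPM in Control members.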

How the data were processed

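The deposited values are raw UMI counts for each gene in each cell. Per the file headers, PISA 1.0 made the matrices, and the submitters' processing notes name STAR and the GRCm39 build. Per the labels' protocols, the tissue was digested with trypsin, red cells were lysed, and 3′ libraries were made with a droplet kit. The annotation release and any free-RNA correction are not given in the sources used here, so no coordinates are printed. Cells under 1000 UMIs were not in the files.

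Cells with at least 500 genes and at most 20% mitochondrial UMIs were kept. The stromal limits were Col1a1, Col1a2 and Col3a1 at 0.5% of UMIs or more and at most 1 UMI of Epcam and Cldn7. Doublets were not removed; an alternative left out cells with 3 or more UMIs of 10 genes of other lineages and the deepest 5% of stromal cells. The mucosal-type and Notum classes mirror the rule. UMIs were summed per class and library, scaled to CPM and compared as log2 ratios with 5 CPM added, for genes at 50 CPM or more in either sum; this understates the change of low genes. Ratios have exact conditional Poisson and shares exact Clopper-Pearson intervals of 95%. With 1 library per genotype no test was possible. Named genes are the 12 highest and 12 lowest ratios per genotype, and the 6 each way against Notum cells. They include the 15 highest and 10 lowest of members over mucosal-type fibroblasts by their smallest ratio over the 3 libraries. A fixed set always read and list members complete them. Left out of the rankings were 21 genes of the rule and its limits, and mitochondrial, ribosomal, globin and predicted genes. Of sex-linked genes only Xist, Tsix, Ddx3y, Eif2s3y, Kdm5d and Uty were left out, so other genes of the sex chromosomes could be ranked. Also left out were genes with a higher CPM outside the stromal limits than in members, in the library where members were higher. Gene lists (27, and 12 of cell type markers) are described by counts and medians, where at least 3 genes could be compared. The members and lists were chosen with earlier results of these data known. The scripts were tested on simulated counts. Tables were computed in Python 3.11.15 with pandas 2.3.3 and numpy 2.4.6, intervals with scipy 1.17.1 and plots with matplotlib 3.10.9.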

Additional observations from a re-analysis of the deposited data

How the results depend on the processing

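With 1 library per genotype, a difference between libraries cannot be told apart from one between genotypes, and depth limits genes near 50 CPM most in YapKO, where a collagen-high sum held 636786 UMIs. No paired analysis was possible because each genotype has 1 library. The collagen-high and 2% collagen settings were chosen after seeing the data. The mitochondrial limit and centring on the median moved no count of genes by over 1.5 times.

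Shares of members among stromal cells in YAP5SA, YapKO and Control were 6.97%, 11.96% and 17.3% with 4 markers, 13.3%, 19.2% and 23.2% thinned to 3000 UMIs, and 20.2%, 18.9% and 33.7% at 2% collagen. They were 18.5% in YAP5SA and 35.2% in Control at 1% collagen, 17.8% and 34.1% in collagen-high cells, and 20.8% in YAP5SA with no limit on Notum genes.

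Genes 2-fold higher and lower in YAP5SA members numbered 86 and 113 at 20 CPM and 148 and 189 with no minimum. The higher ones numbered 24 with a pseudocount of 20 CPM. The lower ones numbered 26 in collagen-high cells, 21 at 2% collagen, 27 with cells weighted equally and 28 thinned. In YapKO the numbers were 205 and 152 at 20 CPM, 291 and 258 with no minimum, 44 and 46 with a pseudocount of 20 CPM and 297 and 246 at 2% collagen, with 220 higher in collagen-high cells. Against mucosal-type fibroblasts, genes 2-fold higher in all 3 libraries numbered 6 at 20 CPM, with 4 markers and with a pseudocount of 1 CPM, 7 thinned, 9 with no minimum, 12 with cells weighted equally, 13 without other lineages and the deepest cells, 21 in collagen-high cells and 30 at 2% collagen. Genes 2-fold lower numbered 14 at 20 CPM and in collagen-high cells, 15 at 2% collagen, 19 with no minimum and 4 with a pseudocount of 20 CPM.

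Some log2 ratios changed sign, and the cause was not tested. In YAP5SA, Ccl21a was 0.37 at 2% collagen, 0.21 in collagen-high cells and 0.20 without other lineages and the deepest cells, Egfl7 was 0.13 in both collagen settings and Tm4sf1 0.16 in collagen-high cells. In YapKO, Adamts6 was -1.58 and Ccl21a 0.43 at 2% collagen, Ckm was 0.26 at 2% collagen and 0.28 in collagen-high cells, Tinagl1 0.51 and 0.39, Egfl7 0.070 in collagen-high cells, and Csmd1 -0.82 with 4 markers and -0.011 in collagen-high cells.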
